A study of Mus musculus with 8 samples.

Results

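The genes described here are the 10 cytokine genes *Il21*, *Il10*, *Il2*, *Il22*, *Il9*, *Il24*, *Il4*, *Il13*, *Il3* and *Csf2*, the T-cell interleukins outside the IL-17 family together with the gene for GM-CSF. They were taken by gene symbol, from a list drawn up with earlier results of these data known, and 9 of them are among the 13704 gene names listed for 2 RNA-seq libraries. The WT library was made from C57BL/6 mice, and the KO library from C57BL/6 mice whose floxed *Trim28* alleles (TRIM28fl/flxCD4cre) were deleted in T cells by Cre under the *Cd4* promoter. TRIM28 is a chromatin-associated co-factor best known for silencing. From both genotypes, naive CD4+ T cells, helper cells that have not met antigen, were grown under Th17 conditions, with TGF-β at 0.5 ng/ml and IL-6 at 20 ng/ml over 3 days, and were then re-stimulated through CD3 by antibody. There was 1 library per genotype, the age of these mice and any pooling of animals are not given in the sources used here, and no difference below has a replicate check.

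Cytokines of this group are secreted by helper T cells after their antigen receptor is engaged, and each helper lineage releases its own set. IL-21, made by Th17 and follicular helper cells, acts back on the T cells themselves and on B cells. IL-2 is the classical T-cell growth factor and limits Th17 development. IL-10 dampens inflammation, IL-22 and IL-24 are its relatives that act mainly on epithelia, IL-4 and IL-13 belong to the Th2 programme, IL-9 to Th9 cells, and IL-3 and GM-CSF drive myeloid growth. Receptor engagement reaches these genes through calcium and NFAT, a factor whose core recognition letters are GGAAA.

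The promoters of *Il21*, *Il2* and *Csf2* are shown because *Il21* was the most read gene of the group and *Il2* is its chromosomal neighbour, and *Csf2* was the tested gene of the group with more reads in the KO library. Each line gives the 250 bases before the annotated gene start, from RefSeq on GRCm38.p6 (the assembly that mm10 stands for), on the strand of the gene and from 5′ to 3′. Capitals mark the NFAT core, GGAAA or, for the other strand, TTTCC. The *Il21* window is chr3:37232637-37232886, the *Il2* window chr3:37125955-37126204 and the *Csf2* window chr11:54249900-54250149, all 3 on the minus strand.
Il21: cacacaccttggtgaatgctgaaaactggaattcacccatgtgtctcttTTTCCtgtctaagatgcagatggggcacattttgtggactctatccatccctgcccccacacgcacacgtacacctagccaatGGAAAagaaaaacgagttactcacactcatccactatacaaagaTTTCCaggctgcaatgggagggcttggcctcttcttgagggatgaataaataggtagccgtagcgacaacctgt
Il2: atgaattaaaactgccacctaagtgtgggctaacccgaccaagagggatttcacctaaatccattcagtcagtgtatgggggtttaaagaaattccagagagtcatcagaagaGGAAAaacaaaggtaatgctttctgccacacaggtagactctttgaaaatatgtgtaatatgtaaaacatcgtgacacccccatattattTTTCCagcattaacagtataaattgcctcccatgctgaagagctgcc
Csf2: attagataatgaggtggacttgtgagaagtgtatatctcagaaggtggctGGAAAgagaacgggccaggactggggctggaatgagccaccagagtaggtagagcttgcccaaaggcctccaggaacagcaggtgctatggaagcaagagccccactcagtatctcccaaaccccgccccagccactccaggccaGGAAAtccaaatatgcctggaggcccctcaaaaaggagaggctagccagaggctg
The core occurred 3 times in the *Il21* window and 2 times each in the *Il2* and *Csf2* windows. It was found in all 8 windows of the group that could be scanned, with 5 matches at *Il4*, 4 at *Il13*, 3 at *Il9* and 1 each at *Il22* and *Il3*. *Il10* and *Il24* had no promoter window, so the motif counts here and below do not cover them. The *Il22* window, chr10:118204714-118204963 on the plus strand, lies inside the annotated gene (118204584 to 118210047) and not before its start. The matches counted for *Il22* here and below are therefore not upstream of the annotated start. A 5-letter motif is common: 55.6% of 32851 annotated promoter windows of the same length held it on either strand. TGCTGA, the core of the recognition element of MAF factors, was in 4 of the 8 windows (*Il21*, *Il2*, *Il4* and *Il13*) against 16.1% of all windows. The GATA letters AGATAA or TGATAA were in 4 (*Il22*, *Il13*, *Il3* and *Csf2*) against 16.6%. The TATA letters TATAAA were in 3 (*Il2*, *Il22* and *Il13*) against 12.4%, the AP-1 letters TGANTCA in the *Il9* window against 6.75%, and the STAT letters TTCNNNGAA in none of the 8 windows against 7.02%. Motifs were counted independently, also where their letters overlapped, and a match describes letters only.

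The libraries were of similar depth, 6650066 assigned reads over 13078 genes for WT and 6185108 over 12754 for KO, and a gene missing from a table was taken to have 0 reads there. *Trim28* itself had 4485 reads in WT and 180 in KO (log2 fold change -4.53). Levels are given as reads, as CPM (reads per 1000000 of the library) and, for the order of levels within the group, as RPKM (CPM per kilobase of the longest annotated transcript). A level was taken as shown from 3 reads on, which is 0.451 CPM for WT and 0.485 CPM for KO, and a count of 0 allows a level up to these values. All intervals cover counting error only. Some genes that activated T cells use, *Myc*, *Runx1* and *Nfatc1*, with 4, 4 and 6 curated transcripts, were listed in neither library, and others with several transcripts were low (*Ptprc* 35 and 13 reads, *Cd44* 36 and 26). Of the 10 cytokine genes, 9 have 1 curated transcript, and *Il21* has 2. A link between the number of transcripts and the read counts was not tested over all genes. T-cell markers were high in both libraries, with a summed level of 4370 CPM in WT and 4246 CPM in KO over 8 of 8 listed genes. The summed Th17 markers *Il17a*, *Il17f*, *Il23r*, *Rora* and *Ccr6* were 876 and 143 CPM. Of this, *Il17a* made up 335 and 61.6 CPM and *Il17f* 473 and 55.8 CPM, and both were called lower. *Rora* (258 and 45 reads) was also called lower. *Il23r* (195 and 107 reads) and *Ccr6* (5 and 7 reads, more in KO) were not called. The Treg markers summed to 2072 and 1672 CPM, of which *Il2ra* made up 1853 and 1443 CPM, and the defining gene *Foxp3* had 1 and 8 reads, too few for the test. The markers of CD8 and NK cells summed to 20.6 and 24.7 CPM, with *Prf1* called higher (22 and 48 reads) and *Cd8b1* at 52 and 27 reads, not called.

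*Il21* was by far the most read gene of the group and was lower in the KO library. It had 3537 reads in WT and 1233 in KO, which is 532 CPM (95% interval from 514 to 550) against 199 CPM (from 188 to 211). The KO level was 2.67-fold lower (log2 fold change -1.42), with a 95% interval from -1.51 to -1.32 (adjusted p = 1.14e-216, two-sided exact binomial test with Benjamini-Hochberg adjustment over 10881 genes). This test compares the reads of 2 libraries, not the genotypes, and in bulk RNA fewer cells of a type and less RNA per cell cannot be told apart. Of all reads on the group, *Il21* took 97.9% in WT (Wilson 95% interval from 97.4 to 98.3) and 97.3% in KO (from 96.3 to 98.1). The other genes of the group together had 76 and 34 reads.

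*Il2*, the neighbour of *Il21* on chromosome 3, was read at a low level and did not pass the test. It had 22 reads in WT and 16 in KO, or 3.31 and 2.59 CPM. The log2 fold change was -0.34, with an interval from -1.38 to 0.64 that includes both no change and a fall of 2-fold (adjusted p = 0.648, exact binomial test with Benjamini-Hochberg adjustment). The change of *Il2* was higher than that of *Il21* by 1.06 on the log2 scale, with an exact conditional 95% interval from 0.03 to 2.06. The lower end is close to 0, and with a correction for transcript length, chosen after seeing the data, the difference was 0.83 (from -0.20 to 1.83), which no longer excludes 0. Of the *Il2* transcript, 12.6% of all 50-base windows are also found in the transcript of *Ntan1*, so a small part of its reads may not have been assignable to 1 gene.

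*Il10*, the anti-inflammatory member, was read in the WT library only. It had 26 reads in WT, 3.91 CPM (from 2.55 to 5.73), and 0 in KO. With 3 reads as the limit in the KO library and the WT count taken as it stands, the level was at least 8.06-fold lower (adjusted p = 2.86e-07, exact binomial test with Benjamini-Hochberg adjustment). The exact two-sided interval, which also covers the counting error of the WT reads, is wider and reached up to a log2 change of -2.61. *Il10* entered the test through its WT reads alone, so its change was not ranked against that of *Il21*.

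*Il24*, a relative of *Il10* on chromosome 1, was also lower in the KO library. It had 17 reads in WT and 4 in KO, 2.56 and 0.647 CPM. This was 3.62-fold lower (log2 fold change -1.85), with a wide interval from -4.01 to -0.37 (adjusted p = 0.0208, exact binomial test with Benjamini-Hochberg adjustment). The difference from the change of *Il21* was -0.57, with an interval from -2.60 to 1.05, and from that of *Il2* it was -1.60, from -3.89 to 0.36, so neither pair was separated. The call of *Il24* was lost when edgeR's exact test was given an assumed coefficient of variation of 0.1 (adjusted p = 0.0977). B cells can also make IL-10. Of the B-cell markers reported here, *Cd79b* (15 and 2 reads) was called lower, *Cd79a* had 20 and 8 reads and was not called, and *Ms4a1* (7 and 2) and *Pax5* (8 and 0) had too few reads for the test. *Cd79b* entered the test through its WT reads alone. The naive cells had been sorted as CD4+CD25-CD62LhiCD44low before culture. The part of B cells in the *Il10* and *Il24* counts was not tested.

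*Csf2*, which encodes GM-CSF, had 7 reads in WT and 9 in KO, 1.05 and 1.46 CPM. The log2 fold change was 0.45, with an interval from -1.13 to 2.13 that spans more than 2-fold in either direction (adjusted p = 0.736, exact binomial test with Benjamini-Hochberg adjustment). A difference in *Csf2* was therefore not detectable at this depth. Its change was nonetheless higher than that of *Il21* by 1.88 (from 0.29 to 3.55), whereas the difference from *Il2* was 0.81 (from -1.10 to 2.78). With the correction for transcript length the first difference was 1.59 (from -0.0032 to 3.26), so that its interval just reached 0. In all, 6 pairs of members were computed in this way, that of *Il10* and *Il21* among them, and the intervals are not adjusted for that number.

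The Th2, Th9 and multi-lineage members were at or under the limit of detection in both libraries. *Il4* and *Il9* each had 2 reads in WT and 1 in KO. *Il13* had 0 and 2 reads, and *Il3* had 0 and 1. No fold change is given for these 4 genes. The Th2 markers *Gata3* (75 and 100 reads), *Ccr8* (99 and 183) and *Ecm1* (119 and 75) were present and not called, while *Il5* and *Ptgdr2* were listed in neither library and the 6 markers summed to 44.4 CPM in WT and 57.9 CPM in KO. Mast cells and basophils are strong sources of IL-4, IL-13 and IL-3 in mice. Of their markers, *Mcpt8*, *Cpa3*, *Fcer1a* and *Ms4a2* were at 0 in both libraries, and *Gata2* had 0 reads in WT and 2 in KO. The myeloid markers summed to 5.11 and 4.04 CPM, with *Lyz2*, *Csf1r* and *Adgre1* at 0 in both.

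*Il22*, an epithelial-acting cytokine associated with Th17 cells, was listed in neither library, which allows up to 0.451 CPM in WT and 0.485 CPM in KO if its reads were counted in full. That condition is uncertain for this gene. Its near copy *Iltifb*, 79.6 kb away on chromosome 10, shares 41.0% of all 50-base windows and 20.4% of all 100-base windows of the *Il22* transcript, and was also listed in neither library. The tables hold uniquely assigned reads, so reads from the shared stretches could have been left out, and the 0 is not shown to be an absence of *Il22* RNA. Apart from *Il22* and *Il2*, no gene of the group shared a 50-base window with another gene.

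**Figure D1:**
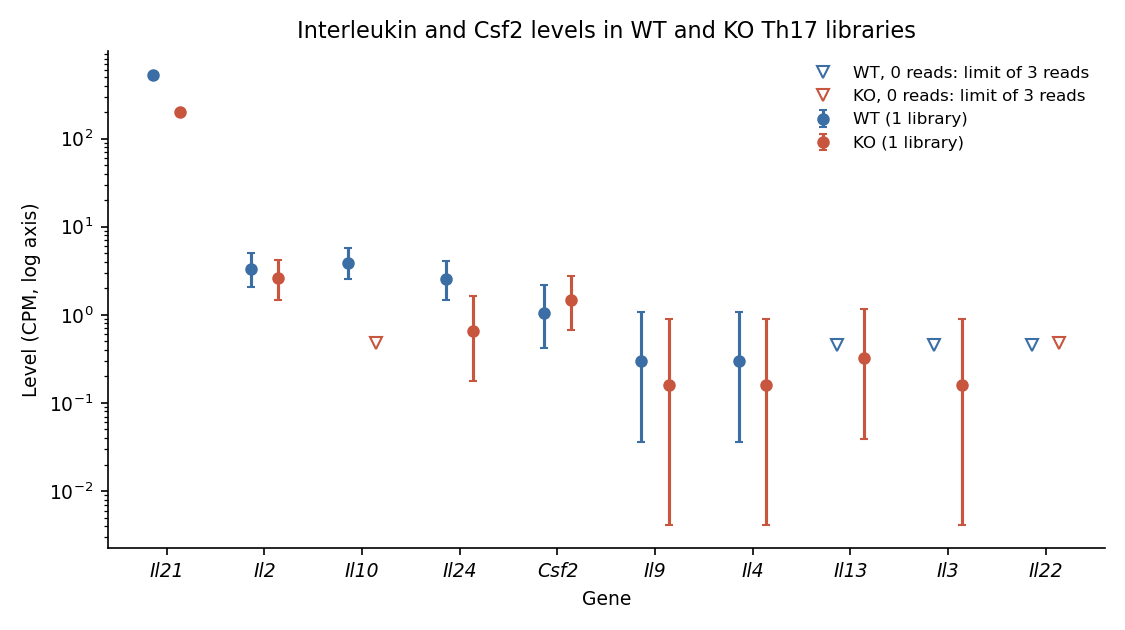
Levels of the 10 cytokine genes in CPM on a log axis, with the WT library in blue and the KO library in red (1 library each) and bars for the exact Poisson 95% interval. Open triangles mark the limit of 3 reads for a gene with 0 reads; *Il21* stands at 532 and 199 CPM, and all other genes lie under 6 CPM with their bars.

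Per transcript length, the order of the group in the WT library ran from *Il21* at 173 RPKM through *Il10* at 2.98 (from 1.95 to 4.37), *Il2* at 2.89 (from 1.81 to 4.38), *Il24* at 2.16 (from 1.26 to 3.46) and *Csf2* at 1.32 (from 0.529 to 2.71). The counting intervals of these last 4 genes overlapped, so their order among themselves was not resolved. *Il9* at 0.561 RPKM and *Il4* at 0.497 RPKM followed, on 2 reads each. In the KO library *Il21* was again first at 64.9 RPKM, followed by *Il2* at 2.26 (from 1.29 to 3.67) and *Csf2* at 1.82 (from 0.832 to 3.45), whose intervals overlapped. *Il24* at 0.547 RPKM (from 0.149 to 1.40) overlapped with both. The gap between *Il21* and the rest of the group was thus far larger in each library than the counting error, and *Il10* was the gene that left the order, with 0 reads in KO.

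Of the 10 genes, 5 had the 10 reads over both libraries needed for the test, and 3 of these (*Il21*, *Il10* and *Il24*) were called lower, none higher. Over all 10881 genes tested, 5.53% were called lower and 2.57% higher, and before any test 7.94% were lower and 3.75% higher by 2-fold or more. The median log2 fold change of the 5 tested genes was -1.42, and that of all tested genes -0.02. *Il10* and *Il24* reached 10 reads through the WT library alone, so neither the count of 3 nor this median is support for a change of the group. With at least 10 reads asked of each library, *Il21* and *Il2* remained, and *Il21* was called.

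**Figure D2:**
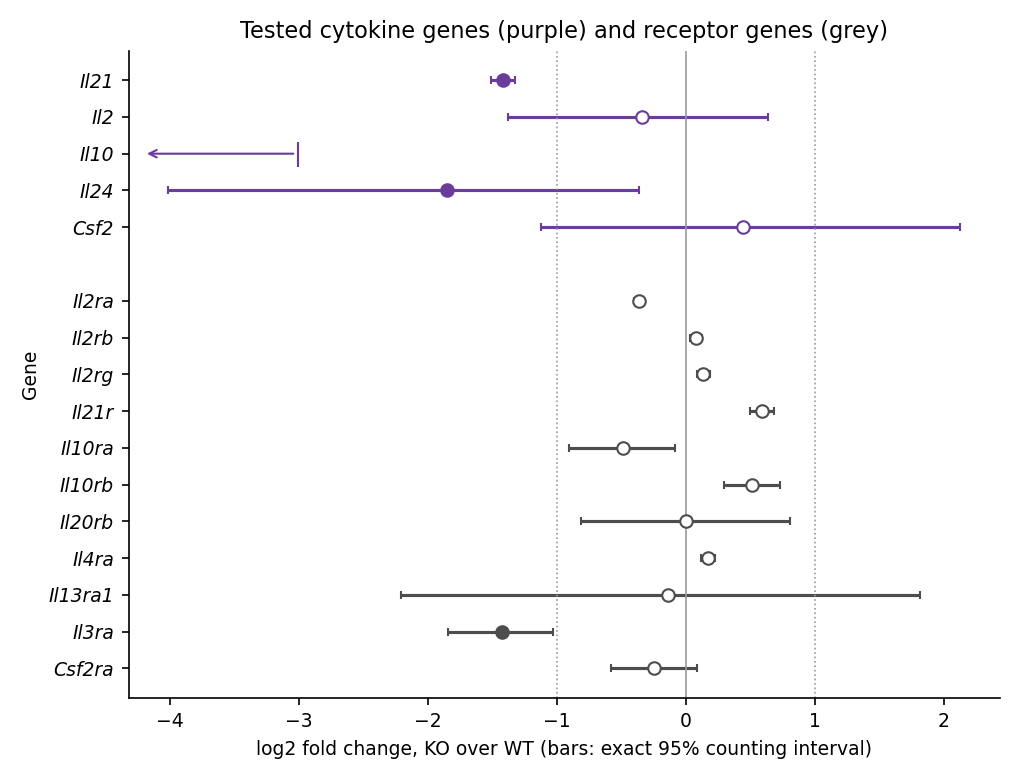
Log2 fold change (KO over WT) of the 5 tested cytokine genes in purple and of the 11 tested receptor genes in grey, with exact 95% counting intervals, filled points for called genes and dotted lines at 2-fold. The *Il10* arrow starts at the bound set by 3 reads; *Il21*, *Il10*, *Il24* and the receptor gene *Il3ra* are the called genes, and the *Il2* and *Csf2* intervals cross 0.

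The members lie in shared gene clusters, so the protein-coding genes next to them were read out as well, 3 on each side of every member. In GRCm38 coordinates *Il21* runs from 37222759 to 37232636 and *Il2* from 37120713 to 37125954 on chromosome 3, 96.8 kb apart with no protein-coding gene between them. Around this pair, 4932438A13Rik, a large gene beyond *Il2*, had 1138 and 663 reads (log2 fold change -0.67) and *Cetn4*, a centrin gene beyond *Il21*, had 97 and 141 reads (0.64). Neither passed the 2-fold limit, *Adad1* was listed in neither library, and *Il21* was the called gene of the region.

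On chromosome 1, *Il24* (130882074 to 130887411) and *Il10* (131019845 to 131024970) are separated by 132 kb that hold *Il20* and *Il19*, both of the same cytokine family and both listed in neither library. *Mapkapk2*, the kinase gene on the far side of *Il10*, had 1932 reads in WT and 2656 in KO (log2 fold change 0.56) and was not called. The lower counts of *Il10* and *Il24* were thus not accompanied by a lower count of this well-read neighbour.

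On chromosome 11, *Il4* (53612460 to 53618665) and *Il13* (53631323 to 53634702) are 12.7 kb apart, and *Csf2* (54247270 to 54249899) and *Il3* (54265085 to 54267279) 15.2 kb, with 613 kb and 8 protein-coding genes between the pairs. *Rad50*, which holds the locus control region of the Th2 cytokine genes, had 629 and 575 reads (log2 fold change -0.02, and 0.20 with a correction for transcript length), and *Kif3a* on the other side had 280 and 295. The few or absent reads of *Il4*, *Il13* and *Il5* thus stood beside well-read genes in both libraries. *Sept8* (3 and 13 reads, log2 fold change 2.05) was called higher. *Fnip1*, a folliculin partner beyond *Il3*, was called lower with 623 and 237 reads (-1.29), a call that was lost with the correction for transcript length (-0.97).

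*Il9* on chromosome 13 (56479277 to 56482257) had 5 neighbours listed in neither library, and the sixth, *Tgfbi*, which encodes a matrix protein induced by TGF-β, fell from 45 to 6 reads (log2 fold change -2.70). *Il22* lies on chromosome 10 (118204584 to 118210047) in front of *Iltifb* and *Ifng*, both with 0 reads in both libraries. Over all 38 neighbours that are not members, 21 were listed, 18 were tested, 2 were called lower and 1 higher, with a median log2 fold change of -0.06. The called share of all tested genes was 5.53% lower and 2.57% higher. *Tgfbi*, called lower, reached 10 reads through the WT library alone, and *Sept8*, called higher, through the KO library alone.

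**Figure D3:**
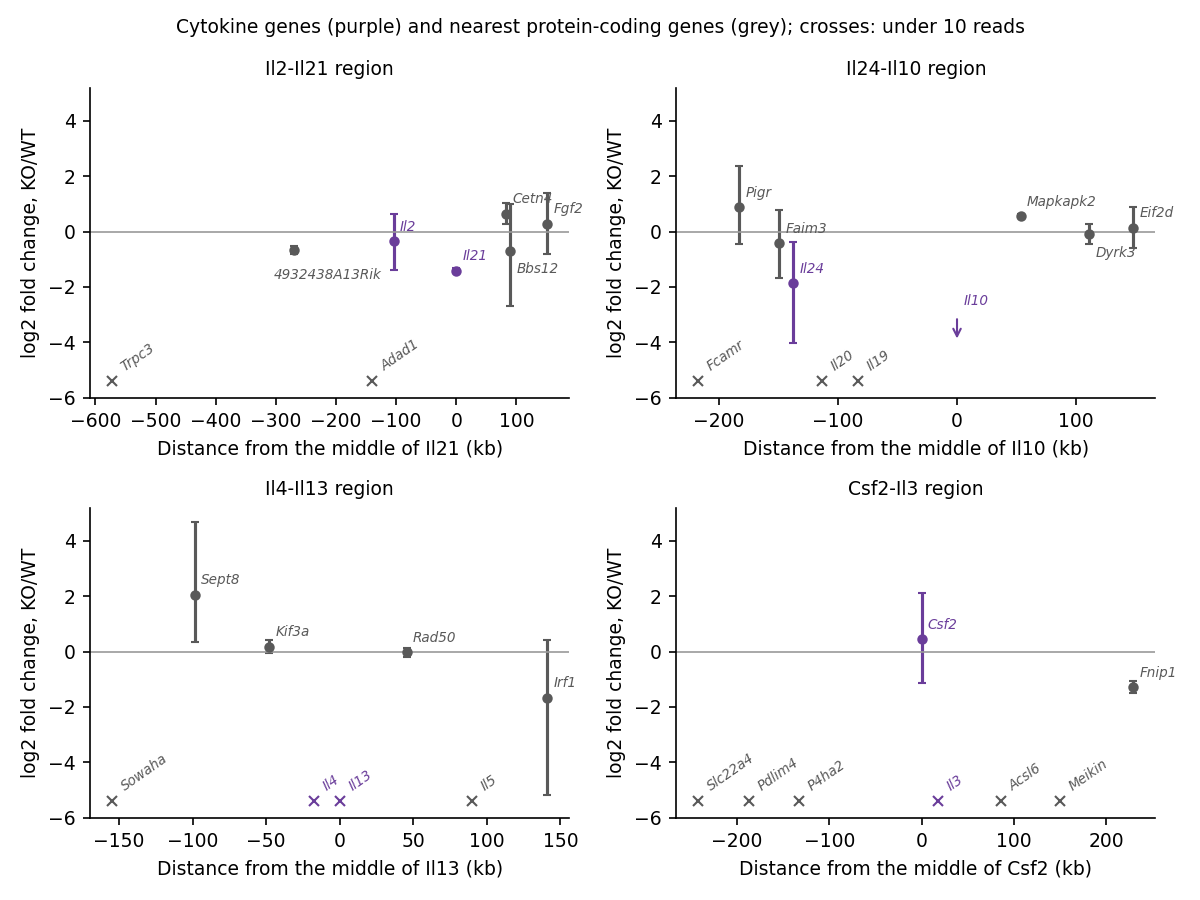
Log2 fold change (KO over WT, with exact 95% counting intervals) of cytokine genes in purple and of their nearest protein-coding genes in grey, against the distance in kb from the middle of *Il21*, *Il10*, *Il13* or *Csf2*. Crosses at the foot are genes with under 10 reads, placed there without a value. *Il21* and *Il10* (arrow, from its bound down) lie below the tested genes on either side, and the crosses are not compared.

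The receptors for these cytokines ranged from well read to not listed, and most of those tested were not called. Of 18 receptor genes, 13 were listed, 11 were tested, 1 was called lower and none higher, and their median log2 fold change was 0.00. Over all tested genes 5.53% were called lower and 2.57% higher, so few calls in a list of this size do not set it apart. The chains of the IL-2 receptor were among the most read of the set. *Il2ra*, the high-affinity chain, had 12320 reads in WT and 8925 in KO (log2 fold change -0.36, from -0.40 to -0.32), *Il2rb* had 7108 and 6982, and *Il2rg*, the common gamma chain that IL-2, IL-4, IL-9 and IL-21 share, had 6726 and 6872. *Il21r*, which pairs with that chain to receive IL-21, had 1713 and 2398 reads, more in the KO library (log2 fold change 0.59, from 0.50 to 0.68). That difference is beyond counting error but under the 2-fold limit, so *Il21r* was not called, whereas the *Il21* count was 2.67-fold lower.

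For IL-10, *Il10ra*, the ligand-binding chain, had 127 and 84 reads (log2 fold change -0.49, from -0.91 to -0.08) and *Il10rb*, the chain shared with IL-22, had 315 and 418 (0.51, from 0.30 to 0.73), in opposite directions and both under 2-fold. Of the other chains for IL-22 and IL-24, *Il20rb* had 29 and 27 reads, and *Il22ra1*, *Il22ra2* and *Il20ra* were listed in neither library. *Il4ra*, shared by IL-4 and IL-13, had 5443 and 5695 reads although its ligands had at most 2, *Il13ra1* had 6 and 5, *Il13ra2* was listed in neither and *Il9r* had 0 and 1.

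Of the receptors for IL-3 and GM-CSF, *Il3ra* was the called gene, with 200 reads in WT and 69 in KO. This was 2.68-fold lower (log2 fold change -1.42), with an interval from -1.85 to -1.03 (adjusted p = 6.95e-13, exact binomial test with Benjamini-Hochberg adjustment). *Csf2ra* had 172 and 135 reads (log2 fold change -0.24, from -0.58 to 0.09). *Csf2rb*, the signalling chain that both cytokines share, had 2 and 0 reads, and *Csf2rb2*, the chain specific to IL-3, was listed in neither library. The call of *Il3ra* was lost at an assumed coefficient of variation of 0.2.

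Genes that respond to signals of these receptors through STAT proteins were present in both libraries, and none of the 10 was called. Their log2 fold changes ran from -0.50 for *Bcl2*, the survival gene, to 0.63 for *Bcl3*, an NF-kB partner, around a median of -0.23. At the share called over all tested genes, 5.53% lower and 2.57% higher, few calls would fall in a list this short. *Cish*, an inhibitor induced by IL-2, had 3363 and 2587 reads, *Socs3*, the inhibitor of IL-6 and IL-21 signals, 1866 and 1650, and *Pim1*, a kinase induced by cytokines, 3852 and 3086.

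Of 26 transcriptional regulators of the cytokine genes, 25 were listed, 24 were tested, 5 were called lower and none higher, with a median log2 fold change of -0.32. The share called over all tested genes was 5.53% lower and 2.57% higher. *Maf*, an activator of *Il21* and *Il10*, had 6699 reads in WT and 1431 in KO, 4.35-fold lower (log2 fold change -2.12, from -2.21 to -2.04). *Ahr*, the ligand-activated factor needed for *Il22*, had 816 and 185 reads, 4.09-fold lower (-2.03). *Nfatc2*, the NFAT1 gene, had 88 and 32 reads (-1.34), *Rel*, the NF-kB member that activates *Il2*, 193 and 85 (-1.07), and *Hlx*, a homeobox gene of Th1 cells, 17 and 4 (-1.85).

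*Hlx* reached 10 reads through the WT library alone, and its call was lost at an assumed coefficient of variation of 0.1. The calls of *Nfatc2* and *Rel* were lost with the correction for transcript length (log2 fold changes -0.99 and -0.69). *Irf4*, which works with BATF at the *Il21* and *Il10* genes, had 10145 and 5222 reads, 1.81-fold lower, and *Batf* had 499 and 784, 1.69-fold higher, both under the 2-fold limit. *Gata3*, the Th2 regulator, had 75 and 100 reads (log2 fold change 0.52, from 0.07 to 0.97). *Nfatc1* was among the genes listed in neither library.

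Against other cytokines and chemokines the group was not the only one with called genes. Of 38 such genes, 22 were listed, 19 were tested, 4 were called lower and 2 higher, with a median log2 fold change of -0.19. Beside them, 5.53% of all tested genes were called lower and 2.57% higher. *Il17a* (2226 and 381 reads, 5.43-fold lower) and *Il17f* (3143 and 345, 8.46-fold lower), the signature cytokines of Th17 cells, had larger falls than *Il21*, with intervals from -2.60 to -2.28 and from -3.25 to -2.92 that did not overlap with its own. *Tnfsf8*, the CD30 ligand, had 256 and 102 reads (log2 fold change -1.22) and *Ccl20*, the ligand of CCR6, 12 and 0. *Ccl20* entered the test through its WT reads alone. *Xcl1* (9 and 36 reads, 4.13-fold higher) and *Ccl3* (57 and 115, 2.16-fold higher), chemokines of activated T cells, were called higher. *Xcl1* entered the test through its KO reads alone, and *Ccl3* lost its call with the correction for transcript length (0.80). At an assumed coefficient of variation of 0.2, the calls of *Tnfsf8*, *Ccl20*, *Xcl1* and *Ccl3* were all lost. *Lta*, *Ltb* and *Tgfb1*, cytokines of nearly all T cells, differed by less than 1.5-fold.

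**Figure D4:**
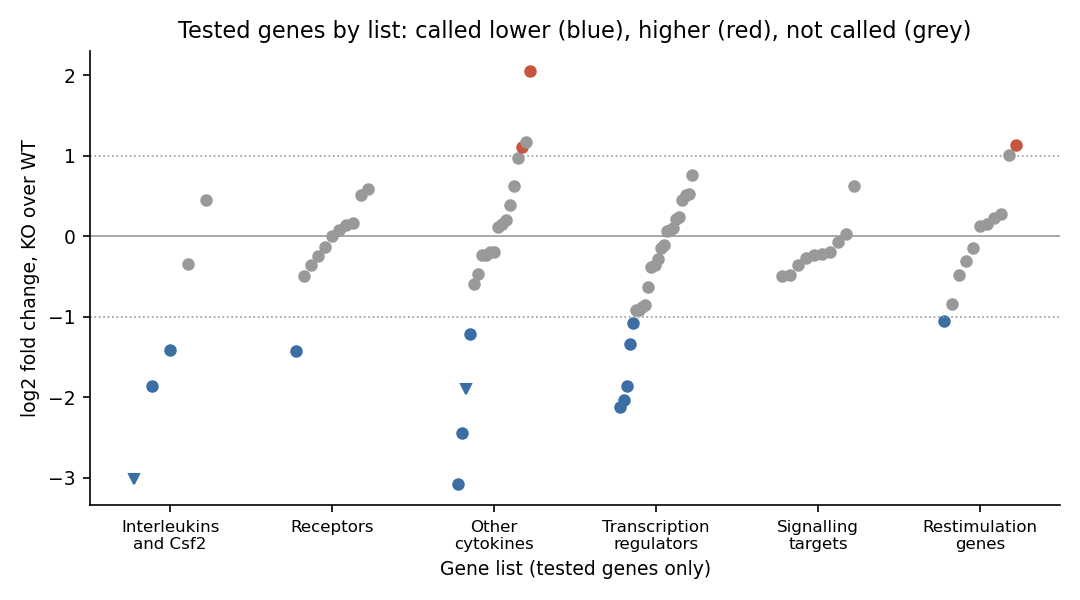
Log2 fold change (KO over WT) of every tested gene of the cytokine group and of the 5 comparison lists, ordered by value within a list, with blue for called lower, red for called higher, grey for not called and dotted lines at 2-fold. Triangles mark bounds for genes with 0 reads in the KO library; the receptors and signalling targets cluster around 0, while *Maf* and *Ahr* at -2.12 and -2.03 lead the lower regulators.

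Both libraries came from cells re-stimulated through CD3, so immediate early genes of receptor engagement were set beside the cytokine genes. Without a library of cells left without re-stimulation, its effect on the reads of the cytokine genes cannot be seen here. Of 12 such genes, 11 were tested, 1 was called lower and 1 higher, with a median log2 fold change of 0.13. All tested genes together gave 5.53% called lower and 2.57% higher. *Nr4a1*, a direct read-out of receptor signal strength, had 2431 and 2475 reads, and *Egr1* had 1395 and 931 (log2 fold change -0.48). *Egr3* was called lower (350 and 156, -1.06) and *Fosb* higher (15 and 31, 1.13). The *Egr3* call was lost with the correction for transcript length (-0.98) and the *Fosb* call with 5 added to each count (0.95). The part of re-stimulation in the *Il21* count was not tested.

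By CPM in both libraries, which is not corrected for length (log2 of CPM plus 1, Euclidean distance over the 2 libraries), the 5 genes most like *Il21* were *Slc1a5*, *Kmt2a*, *Ssh2*, *Cblb* and *Ep300*. *Slc1a5*, a neutral amino acid transporter, had 3893 and 1344 reads and was called lower (log2 fold change -1.43). *Kmt2a*, a histone methyltransferase gene, had 2986 and 1345 reads and was also called lower (-1.05), a call that was lost with the correction for transcript length (-0.39). The remaining 3, with between 2694 and 3328 reads in WT and between 1409 and 1594 in KO, were not called. Likeness over 2 libraries describes level only.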

How the data were processed

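RNA-seq of in vitro Th17 cells, 1 WT and 1 KO library, was analysed; the 6 ChIP-seq samples of the series are not analysed here. According to the study's methods, reads were mapped to mm10 with SOAP2. The submitters' processing notes name bcl2fastq, HTSeq, Bowtie and SICER 1.1 without giving their roles for RNA, and the annotation, the strand setting and the treatment of ambiguous reads are not given in the sources used here. The authors deposited 1 table per library of raw, unnormalized counts of unique reads by gene, in which genes without reads are not listed.

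Library totals served as scale, and 0.5 was added to each count for log2 fold changes. The 10881 genes with 10 or more reads in the sum of the libraries entered an exact binomial test of the KO share, two-sided (SciPy 1.17.1, Python 3.11.15), with Benjamini-Hochberg adjustment. A call needed an adjusted p under 0.05 and 2-fold or more. Quasi-likelihood tests have no residual degrees of freedom with 1 library per group. Intervals are exact at 95%, except the Wilson intervals of the *Il21* share of reads. Alternatives used edgeR 4.0.16 (TMM and exact tests at assumed coefficients of variation), DESeq2 1.42.0 size factors, upper-quartile scaling, other filters, thresholds and added counts, and a loess correction for transcript length (statsmodels 0.14.6, R 4.3.3). Scripts were tested on simulated counts.

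Gene positions and promoters are RefSeq, GRCm38.p6; 12841 gene names were found as current symbols, 804 through an older symbol, and 59 were not found. The members and gene lists were chosen with earlier results of these data known. Named genes are all members, *Trim28*, every receptor, called genes of the lists and neighbours, the 5 genes nearest to *Il21* by level, and cell type markers where described. Other named genes (*Myc*, *Runx1*, *Ptprc*, *Cd44*, *Irf4*, *Batf*, *Lta*, *Ltb*, *Tgfb1*, *Egr1*, *Nr4a1*, the signalling targets and uncalled neighbours) were picked after their values were seen. Of the B-cell markers, 1 is not reported here, and their summed level is left out.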

Additional observations from a re-analysis of the deposited data

How the results depend on the processing

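The alternatives were read for 100 tested genes: members, *Trim28*, genes of the comparison lists, neighbours and the genes nearest to *Il21* by level. Of their 1285 values, 1210 were unchanged in direction and call, 52 lost the call, 16 gained it and 7 changed sign. Only scaling, the added count and the length correction alter a log2 fold change, so direction could not change in the other settings. Genes not called at first had no call to lose, so the 1210 is not a measure of robustness. TMM, DESeq2 and upper-quartile scaling moved the median of all genes by at most 0.02 and changed no call of a member. Members called lower fell from 3 to 1 with at least 10 reads in each library, since *Il10* and *Il24* are then not tested, and to 0 at an assumed coefficient of variation of 0.4. *Il21* and *Il10* kept their calls at 0.2 (adjusted p = 0.0455 and 0.000713, edgeR's exact test) and lost them at 0.4 (adjusted p of *Il10* 0.178). *Il24* lost its call at 0.1, at 0.2 (adjusted p = 0.450) and at an adjusted p under 0.001. The members' median of -1.42 was -1.18 with 5 added to each count, -0.63 with at least 1 read and -0.88 with at least 10 reads in each library, settings that shrink or change the genes counted. With the length correction, added after seeing the data for differences between members, neither *Il2* nor *Csf2* was separated from *Il21*. Sign changes all came with the transcript length correction, in genes that were not called: *Il2rg* (-0.058), *Il20rb* (-0.060), *Tnf* (-0.042), *Junb* (-0.077), *Fosl2* (0.19), *Socs1* (-0.024) and *Rad50* (0.20). Genes called lower and higher over the whole table numbered 602 and 280, against 131 and 65 at 0.2, 9 and 7 at 0.4, 370 and 170 at an adjusted p under 0.001, 389 and 184 with at least 10 reads in each library, and 1248 and 764 at 1.5-fold. No paired analysis was possible because each genotype has 1 library, which also leaves no replicate to leave out. With 7 and 9 reads for *Csf2* and at most 2 for *Il4*, *Il9*, *Il13* and *Il3*, depth limits what these genes can show.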
